A study of Mus musculus with 6 samples.

Results

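The genes described here encode 9 small membrane proteins that interferon is known to induce: the tetherin gene Bst2, the Ifitm genes Ifitm1, Ifitm2 and Ifitm3, the genes Ifi27 and Ifi27l2a, and the Ms4a genes Ms4a4b, Ms4a4c and Ms4a6b. They were chosen by symbol, and all 9 were found among the 24493 genes of the table. The 6 libraries came from mouse spleen CD4 T cells that were isolated naive and differentiated in culture into cells labelled Treg (regulatory T cells, which restrain immune responses). In 3 libraries the genotype was WT (wild type) and in 3 it was Ifnar1-SA. Ifnar1 encodes a chain of the receptor for type I interferon, and in published work SA names a knock-in allele whose receptor carries alanine in place of a serine needed for its degradation. The labels give no strain, age, culture time or added interferon. Nothing in them ties the 3 libraries of a genotype to separate mice or cultures, and the p-values given here therefore reflect the spread among these libraries alone, which may be technical. Expression was given as TPM (transcripts per 1e+06), a share of transcripts corrected for their length that keeps no sequencing depth, so levels can be compared between genes but not tied to a count of reads.

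When type I interferon binds its receptor, a complex of transcription factors that includes IRF9 binds a DNA element called ISRE in front of target genes, while the response to interferon gamma acts mainly through an element called GAS. Membrane proteins are among the targets that act on virus directly. Tetherin, the product of Bst2, holds budding virus particles at the cell surface. IFITM proteins sit in the plasma membrane or in endosomes and hinder the fusion of viral with cellular membranes. The products of the Ifi27 genes are hydrophobic proteins of inner membranes, and MS4A proteins span the membrane several times and modulate signalling of the receptors beside them.

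Sequences near the RefSeq starts of these genes are shown because the windows searched differ in whether the interferon elements could be found. RefSeq windows from 250 bases before to 50 bases after the gene's start (build GRCm38.p6) were matched for 7 of the 9 genes, leaving Ifi27 and Ifi27l2a. Each window was searched on both strands for the ISRE core GAAANNGAAA and for the GAS element TTCNNNGAA. Over all 32851 such windows, 3.44% held the first and 8.30% the second. The 4 stretches below run 5′ to 3′ on the gene's strand, with ISRE cores in capitals.
Bst2, chr8:71537553-71537632, minus strand: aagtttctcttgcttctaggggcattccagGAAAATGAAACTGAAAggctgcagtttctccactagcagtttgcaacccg
Ifitm2, chr7:140955988-140956067, minus strand: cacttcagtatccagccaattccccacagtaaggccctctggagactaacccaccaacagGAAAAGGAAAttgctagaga
Ifitm3, chr7:141010715-141010744, minus strand: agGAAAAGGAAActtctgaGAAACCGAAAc
Ifitm1, chr7:140967947-140968026, plus strand: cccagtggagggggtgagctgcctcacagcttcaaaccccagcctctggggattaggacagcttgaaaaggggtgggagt

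Bst2 had 2 ISRE cores, at −130 to −121 and −124 to −115 bases from the start, which overlap each other, and a GAS match at −136 to −128 that overlaps the first core. Ifitm3 had 2 ISRE cores just after its start, at 3 to 12 and 20 to 29 bases, in what the annotation gives as the 5′ untranslated part of exon 1. A GAS match at 14 to 22 began between them and overlapped only the core at 20 to 29. Ifitm2 had 1 core, at −46 to −37. The first core of Ifitm3 and that of Ifitm2 have the same letters, and both genes share a run of 13 bases there, caggaaaaggaaa. In the windows of Ifitm1, Ms4a4b, Ms4a4c and Ms4a6b there was no match to either motif. This says only that these letters are not in the 300 bases searched at the 1 start RefSeq gives. For Ifitm1, Ms4a4c and Ms4a6b that window (from 140967826, 11407411 and 11518309) lies inside the gene as GENCODE M21 annotates it. There the genes begin at 140967221, 11404770 and 11516512, and the sequence before those starts was not searched. A match is a description of the sequence and was not measured as a binding site.

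**Figure D1:**
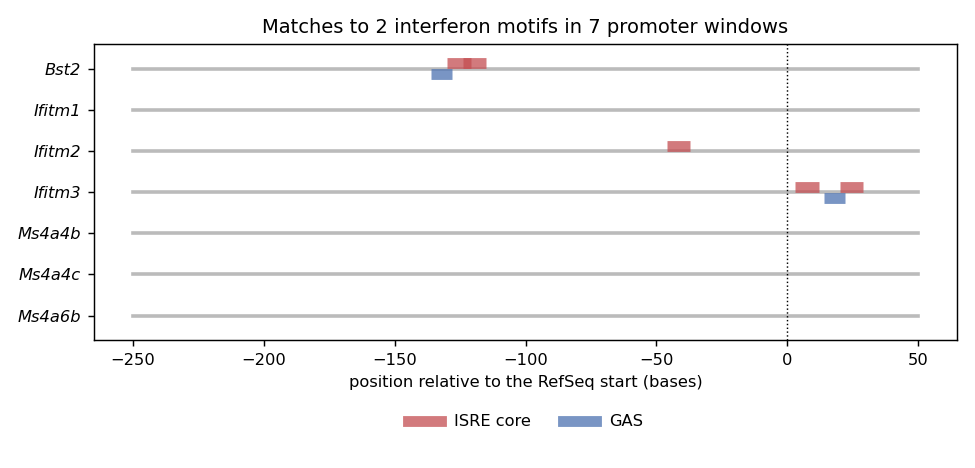
Matches to the ISRE core and the GAS element in the promoter windows of 7 genes, by position from the RefSeq start in bases (grey line, the window searched; bars, matches). Bst2 and Ifitm3 each hold 2 ISRE cores and 1 GAS match, Ifitm2 holds 1 core, and the other 4 windows hold neither. The windows of Ifitm1, Ms4a4c and Ms4a6b lie inside the genes as GENCODE M21 annotates them.

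Before the results, the libraries themselves were compared. Between 21925 and 22958 genes were above 0 in a library, and Pearson's r across genes (not independent of each other) ranged from 0.944 to 0.961 for libraries of 1 genotype and from 0.939 to 0.966 for libraries of different genotype. WT 2 and Ifnar1-SA 1 stood apart in short abundant transcripts such as Rn4.5s, at 3846 and 2978 TPM there against 14249 to 20882 TPM in the other 4, so results are also given without this pair. T cell genes were abundant (7 of 8 CD4 T cell markers were found and summed to 1940 to 2071 TPM for WT and 2070 to 2320 TPM for Ifnar1-SA), but Foxp3, which defines Treg cells, was at 0.276 to 0.697 TPM for WT and 0.746 to 1.82 TPM for Ifnar1-SA. Of the other Treg markers, Ikzf2, Itgae and Lrrc32 were also low (5 of the 8 stayed under 5 TPM in every library), while Tnfrsf18, Ctla4 and Il2ra were abundant. The cells are therefore called by their label and not taken as Foxp3-expressing Treg cells.

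All 9 genes had a higher mean in Ifnar1-SA, while 37.1% of all genes tested had a higher mean log2 value there. Of the 9, 6 were at 27.5 TPM or more in every library. Among these 6, 4 genes, Bst2, Ifitm1, Ifi27 and Ifi27l2a, were higher in all 3 Ifnar1-SA libraries than in any WT library. The genotypes overlapped for Ifitm2 and Ifitm3, and the 3 Ms4a genes overlapped with log2 differences of at most 0.21. Values were tested with limma as log2(TPM + 1), two-sided, over the 12141 genes whose mean TPM was 1 or more, a filter that 8 of the 9 genes passed and Ms4a4b did not. No gene of the set passed an adjusted p of 0.05 (Benjamini-Hochberg over all genes tested), a threshold that 7 genes passed, or 0.0577% of those tested, all of them microRNA genes. At an unadjusted p under 0.05, 5 of the 8 tested were higher in Ifnar1-SA (the 4 above and Ifitm3) and 0 were lower. Over all genes tested, 175 or 1.44% were higher and 204 or 1.68% lower at this p. The 4 genes without overlap stand beside 239 genes, or 1.97% of all genes tested, that were higher without overlap. The median log2 difference of the 8 tested was 0.96, against −0.056 over all genes tested. Since the 9 genes were chosen with earlier results of these data known, the contrasts with all genes are a description only. Since the libraries are of bulk RNA, more cells that express a gene and more RNA per cell cannot be told apart.

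**Figure D2:**
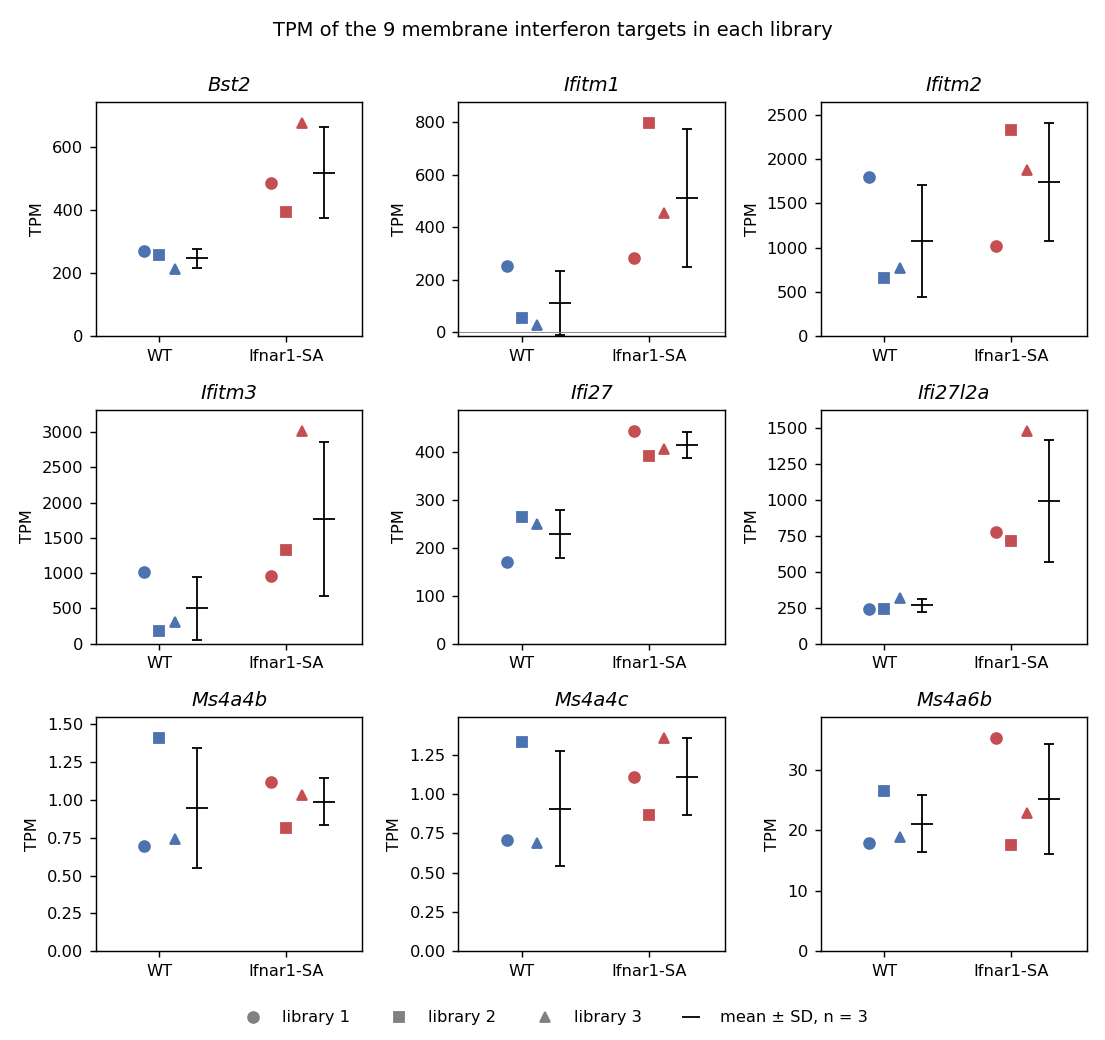
TPM (vertical axis, linear, a scale of its own in each panel) of the 9 genes in the WT (blue) and Ifnar1-SA (red) libraries, 1 symbol per library, with mean ± SD of the 3 libraries beside them. For Bst2, Ifitm1, Ifi27 and Ifi27l2a every red point lies above every blue one, while WT 1 reaches the Ifnar1-SA range for Ifitm2 and Ifitm3. The WT bar of Ifitm1 reaches below 0 because its SD (121.6 TPM) exceeds its mean (111.7 TPM).

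Bst2 (GRCm38 chromosome 8, 71534255 to 71537456, minus strand) encodes the virus-tethering protein tetherin. It was at 268, 257 and 212 TPM for WT 1, 2 and 3 and at 483, 393 and 675 TPM for Ifnar1-SA 1, 2 and 3. The WT libraries lay close together, and the lowest Ifnar1-SA library was above all of them. Mean levels were 246 ± 29.6 TPM (SD, n = 3) and 517 ± 144 TPM (SD, n = 3), a ratio of 2.10. The log2 difference was 1.04 ± 0.23 (SE, limma, unadjusted p = 0.00258, adjusted p = 0.747). None of the 31-base words of its transcripts occurs in another gene of the GENCODE M21 annotation, so by this measure it shares no reads with a close copy.

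Ifitm2 and Ifitm3 had the highest mean levels of the set, and the 3 Ifitm genes varied most between libraries of a genotype among the 8 genes tested. Ifitm1, Ifitm2 and Ifitm3 lie within 55934 bases of chromosome 7 with no other protein-coding gene annotated between them: Ifitm2 at 140954837 to 140955987 on the minus strand, Ifitm1 at 140967221 to 140969825 on the plus strand, and Ifitm3 at 141009586 to 141010770 on the minus strand. Their products are 106, 144 and 137 residues long for Ifitm1, Ifitm2 and Ifitm3.

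Ifitm3 encodes the family member best known for restricting virus that enters through endosomes. It was at 1011, 186 and 304 TPM for the WT libraries and 963, 1323 and 3019 TPM for the Ifnar1-SA libraries. WT 1 was above Ifnar1-SA 1, so the genotypes overlapped, while WT 2 and WT 3 were below all others. The means were 500.5 ± 446 TPM and 1768 ± 1098 TPM (SD, n = 3 each), a ratio of 3.53, and the log2 difference was 2.02 ± 0.67 (SE, limma, unadjusted p = 0.0201, adjusted p = 0.9997).

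Ifitm1 encodes a shorter member that stays mainly at the plasma membrane. Its WT libraries held 251, 56.5 and 27.5 TPM and its Ifnar1-SA libraries 284, 798 and 455 TPM. The genotypes did not overlap, but WT 1 came close to Ifnar1-SA 1, and the WT values spanned 9.12-fold. The log2 difference of 2.66 was the largest of the 8 tested and had the largest standard error, 0.78 (limma, unadjusted p = 0.0117, adjusted p = 0.9997). With median-of-ratios or TMM scaling (trimmed mean of M-values) the genotypes of Ifitm1 overlapped.

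Ifitm2, another endosomal member, was at 1799, 654 and 774 TPM for WT and at 1013, 2327 and 1883 TPM for Ifnar1-SA. It was the highest of the 9 genes in 5 of the 6 libraries and next to Ifitm3 in Ifnar1-SA 3. WT 1 was above Ifnar1-SA 1, and the means of 1076 ± 629 and 1741 ± 668 TPM (SD, n = 3 each) differed by about their spread (log2 difference 0.76 with a standard error of 0.45, limma, unadjusted p = 0.137, adjusted p = 0.9997). Of its 31-base transcript words 55.5% occur in another gene of the annotation, 38.1% in the overlapping model Gm45717 and 8.48% in genes with a row of their own in the table, so its level depends on how such reads were assigned. For Ifitm1 and Ifitm3 this share was 11.6% and 20.5%.

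Within a genotype the Ifitm genes spread more than most genes. The pooled SD of log2 values between libraries of a genotype was 1.25 for Ifitm1, 0.71 for Ifitm2 and 1.07 for Ifitm3, larger than for 95.7%, 93.2% and 94.9% of all genes tested, whose median was 0.248. The 3 genes together summed to 3062, 897 and 1105 TPM for the WT libraries and 2260, 4449 and 5357 TPM for the Ifnar1-SA libraries. WT 1 was the high WT library for each of the 3 genes and Ifnar1-SA 1 the low Ifnar1-SA library. Leaving out WT 1 gave log2 differences of 3.54, 1.21 and 2.71 for Ifitm1, Ifitm2 and Ifitm3, and leaving out WT 2 gave 2.47, 0.48 and 1.5. The unadjusted limma p of Ifitm3 was 0.0589 without WT 2, 0.0536 without WT 3 and 0.0570 without Ifnar1-SA 3. With limma's robust empirical Bayes variance model on all 6 libraries it was 0.0635. In each of these settings the unadjusted limma p stayed under 0.05 for Bst2, Ifitm1, Ifi27 and Ifi27l2a. The share of all genes tested under 0.05 was not computed for these settings. Without WT 1, without Ifnar1-SA 1, or without the pair of WT 2 and Ifnar1-SA 1, 6 of the 9 genes were higher without overlap, Ifitm2 and Ifitm3 added, against 8.36%, 3.48% and 6.83% of all genes tested in these settings. Without that pair the unadjusted limma p was 0.0650 for Ifitm1 and 0.0644 for Ifitm3 and stayed under 0.05 for Bst2, Ifi27 and Ifi27l2a.

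Genes of cytotoxic granules followed a like order over the libraries. Gzmb, which encodes granzyme B, was at 1165, 437 and 596 TPM for WT and 746, 1619 and 1595 TPM for Ifnar1-SA, so that its libraries ranked in the same order as those of Ifitm2. Nkg7, a granule membrane gene, was at 2672, 896 and 1329 TPM for WT and 1661, 2484 and 2337 TPM for Ifnar1-SA. Both are on a list of 10 CD8 T and NK cell markers, which summed to 1356 to 3857 TPM for WT and 2429 to 4124 TPM for Ifnar1-SA, and neither passed the test (limma, adjusted p = 0.9997 for each). Of the markers that define those cells, Cd8b1 was at 9.07 to 15.4 TPM and Cd8a at 1.55 to 4.26 TPM over the 6 libraries, and Klrd1, Klrk1, Ncr1, Eomes and Klrb1c were under 1 TPM in every library. The part of these genes' variation in the Ifitm values was not tested.

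**Figure D3:**
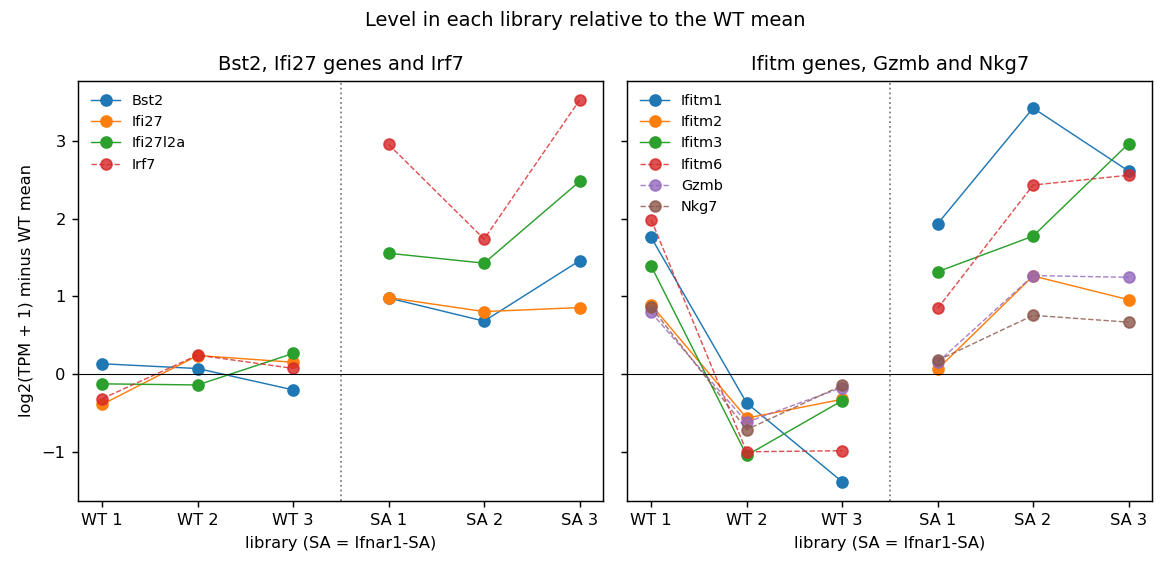
Log2(TPM + 1) of each library minus the mean of the 3 WT libraries, for Bst2, the Ifi27 genes and Irf7 (left) and for the Ifitm genes with Gzmb and Nkg7 (right). Thin lines join the points of a gene and imply no order of the libraries. The WT libraries lie close together on the left, whereas WT 1 stands above WT 2 and WT 3 for all genes on the right.

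Ifi27 and Ifi27l2a lie next to each other within 9470 bases of chromosome 12, at 103434211 to 103440239 on the plus strand and 103442167 to 103443680 on the minus strand. Their products, of 260 and 90 residues in the annotation, belong to a family of hydrophobic membrane proteins. RefSeq lists Ifi27 as an older name of Ifi27l2a, so the symbols can be confused, but the table has a row for each and the values differ. Ifi27 was at 171, 265 and 249 TPM for WT and 445, 392 and 407 TPM for Ifnar1-SA. The Ifnar1-SA libraries lay within 1.13-fold of each other, all above the WT libraries. The means were 228 ± 50.4 and 415 ± 27.0 TPM (SD, n = 3 each), a ratio of 1.82, with a log2 difference of 0.88 and a standard error of 0.20 (limma, unadjusted p = 0.00317, adjusted p = 0.838).

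Ifi27l2a, the gene with the shorter product, was at 243, 240.3 and 319 TPM for WT and 780.1, 714 and 1482 TPM for Ifnar1-SA. The Ifnar1-SA libraries were all above the WT libraries, with Ifnar1-SA 3 well above the other two. The log2 difference of 1.82 had a standard error of 0.30 and the lowest p of the 9 genes (limma, unadjusted p = 4.98e-04, adjusted p = 0.275), which ranked 22 among all genes tested. Of its 31-base words 6.0% occur in Ifi27l2b, a gene at most 0.825 TPM in any library, and none of those of Ifi27 occurs elsewhere.

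**Figure D4:**
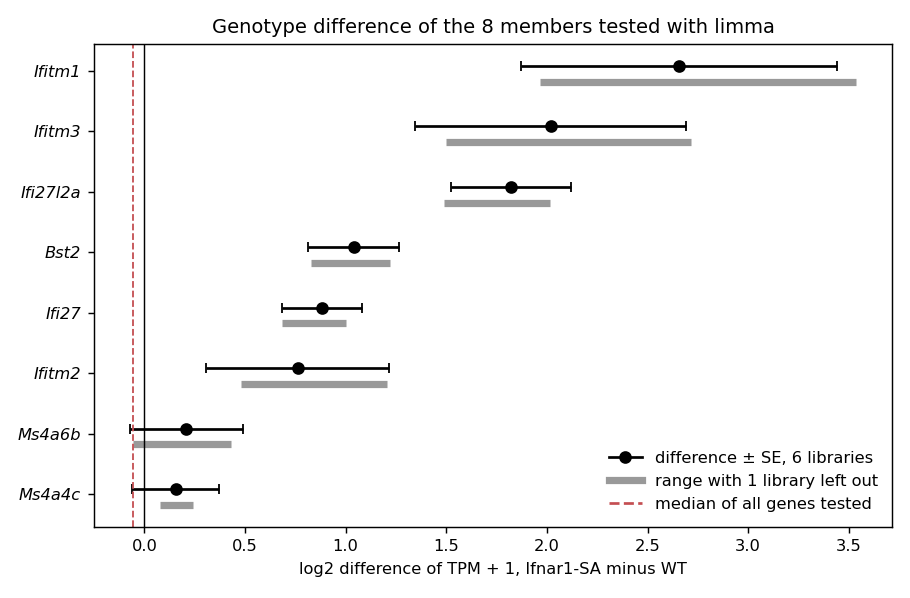
Log2 difference of TPM + 1, Ifnar1-SA minus WT, for the 8 genes tested with limma (points ± SE; grey bars, the range when each of the 6 libraries is left out in turn, for Ms4a4c only the 3 of these settings in which it passed the filter; dashed line, the median of all genes tested, −0.056). The 6 upper genes lie above 0 in every such range, and the bar of Ms4a6b crosses 0.

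The Ms4a genes were lower and overlapped between genotypes. Ms4a4c, Ms4a4b and Ms4a6b lie in this order on the plus strand of chromosome 19, from 11404770 to 11531256. Ms4a6b, which T cells express, was at 17.8, 26.5 and 18.9 TPM for WT and 35.1, 17.5 and 22.8 TPM for Ifnar1-SA, so the highest and the lowest library were both Ifnar1-SA. The means were 21.1 ± 4.74 and 25.1 ± 9.07 TPM (SD, n = 3 each), the log2 difference was 0.21 ± 0.28 (SE, limma, adjusted p = 0.9997), and it was −0.054 without Ifnar1-SA 1. Ms4a4b, whose product is a T cell membrane adaptor known to associate with the co-stimulatory receptor GITR, was at 0.696, 1.41 and 0.740 TPM for WT and 1.12, 0.815 and 1.03 TPM for Ifnar1-SA (difference of mean log2 values 0.045, exact two-sided permutation p = 0.8, where 3 against 3 libraries cannot go below 0.1). Ms4a4c was at 0.705, 1.33 and 0.689 TPM for WT and 1.11, 0.866 and 1.35 TPM for Ifnar1-SA (log2 difference 0.16 ± 0.22 SE, limma, adjusted p = 0.9997). WT 2 was the highest WT library for each of the 3. At about 1 TPM with unknown depth, these values do not show whether Ms4a4b and Ms4a4c differ. The windows of these 2 genes share a run of 20 bases near the start, ttctgcctcttagtcagtgg, and 13% of the 31-base words of Ms4a4c occur in Ms4a4b, so reads could be exchanged between them.

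Relatives of these families outside the set were mostly near the floor. Of 22 listed, 21 were found, 18 of them under 5 TPM in every library. Of the 8 that passed the filter, 0 had an unadjusted limma p under 0.05 and 0 were without overlap. Of all genes tested, 1.44% were higher and 1.68% lower at this p, and 1.97% were higher and 3.8% lower without overlap. Beside such shares, 0 of 8 does not set the relatives apart. Ifitm6, the neighbour of Ifitm3 on chromosome 7 (141015699 to 141017924), was at 19.3, 1.56 and 1.59 TPM for WT and 8.21, 26.7 and 29.2 TPM for Ifnar1-SA. As with Ifitm1, Ifitm2 and Ifitm3, WT 1 was the high WT library and Ifnar1-SA 1 the low Ifnar1-SA library (log2 difference 1.95 with a standard error of 0.87, limma, unadjusted p = 0.0605, adjusted p = 0.9997). Ms4a6c, which lies between Ms4a4b and Ms4a6b, was at 17.6, 20.9 and 19.5 TPM for WT and 14.9, 18.8 and 17.2 TPM for Ifnar1-SA, overlapping and with the lower mean in Ifnar1-SA. Ifitm7 (2.55 to 7.16 TPM) and Ms4a4a (1.21 to 3.56 TPM) overlapped between genotypes.

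Few signalling genes upstream of the set differed at an unadjusted p under 0.05. Of 15 genes of interferon receptors, kinases, factors and feedback inhibitors, 1 had an unadjusted limma p under 0.05 as higher and 0 as lower, against 1.44% and 1.68% of all genes tested, and the median log2 difference was 0.028. The 1 gene was Irf7, a factor that interferon induces and that amplifies the response, at 2.01, 3.44 and 2.95 TPM for WT and 28.1, 11.5 and 42.2 TPM for Ifnar1-SA (unadjusted p = 4.22e-04, adjusted p = 0.244). Its 3 Ifnar1-SA libraries ranked in the same order as those of Bst2 and Ifi27l2a. Socs3, a feedback inhibitor, was the 1 gene of the list lower without overlap, as 3.8% of all genes tested were, at 34.9 to 39.5 TPM for WT and 29.8 to 34.2 TPM for Ifnar1-SA (limma, log2 difference −0.19, unadjusted p = 0.219, adjusted p = 0.9997). Socs1 was the highest of the list, at 301 to 355 TPM for WT and 312 to 382 TPM for Ifnar1-SA. Genes whose products modify, sort or degrade IFITM proteins or tetherin were counted as well. Of 13 found, 12 were tested, and their median log2 difference was −0.062. At an unadjusted limma p under 0.05, 0 were higher and 0 lower. Beside the same 1.44% and 1.68% of all genes tested, this does not set these genes apart. Among them Ap2m1, a clathrin adaptor subunit, was at 157 to 189 TPM for WT and 156 to 201 TPM for Ifnar1-SA, and Vapa, a membrane protein that IFITM3 binds, was at 136 to 183 and 112 to 144 TPM.

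Markers of other cells that can express these membrane genes were mostly under 5 TPM, with exceptions in the B cell, myeloid and neutrophil lists. The 10 markers of plasmacytoid and conventional dendritic cells, of which plasmacytoid cells carry Bst2 constitutively, were all under 5 TPM, summing to 6.54 to 14.3 TPM for WT and 6.41 to 8.90 TPM for Ifnar1-SA, with Siglech at 1.05 to 2.95 TPM. The 10 myeloid markers summed to 38.6 to 61.2 TPM for WT and 51.5 to 139.9 TPM for Ifnar1-SA, and without Ly6c2, an interferon-responsive gene of the Ly6 family, to 9.23 to 16.7 and 10.6 to 13.7 TPM, of which Cd68 made up 7.14 to 12.3 TPM over the 6 libraries. The 11 neutrophil and mast cell markers summed to 42.2 to 47.04 TPM for WT and 39.0 to 57.0 TPM for Ifnar1-SA. Most of that was Cxcr2, a chemokine receptor gene, at 20.5 to 36.4 TPM over the 6 libraries. Without it the sums were 8.32 to 13 TPM and 18.5 to 23.4 TPM and did not overlap, with Ly6g, a gene of the Ly6 family, at 6.46 to 6.55 TPM for WT and 14.2 to 21.4 TPM for Ifnar1-SA. S100a8 was at most 0.504 TPM and S100a9 at most 2.87 TPM. B cell markers summed to 11.1 to 23.5 TPM for WT and 12.2 to 16.0 TPM for Ifnar1-SA, and stromal and endothelial markers to 4.20 to 7.77 and 3.88 to 5.12 TPM. The part of such cells in the differences of the set was not tested.

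The genes whose pattern over the 6 libraries was most like that of a member were sought among genes of 10 TPM or more in the mean. The members themselves and predicted gene models (Gm and Rik symbols) were left out of this search. The measure was Pearson's r of log2(TPM + 1), given as a description over 6 libraries that share their genotypes. For Bst2 they were Oas3 (r = 0.982), an antiviral enzyme at 9.50, 10.8 and 7.57 TPM for WT and 19.6, 13.4 and 23.9 TPM for Ifnar1-SA, then Tmem205 (r = 0.974) and Trim30a (r = 0.973). For Ifi27l2a they were Ly6g (r = 0.983), Isg15 (r = 0.981), a ubiquitin-like modifier at 9.82, 9.82 and 11.7 TPM for WT and 36.9, 25.6 and 102.7 TPM for Ifnar1-SA, and Xaf1 (r = 0.978). For Ifitm3 they were Mitd1 (r = 0.986), Ly6a (r = 0.976), a surface antigen gene, and Dynlt1c (r = 0.952). For Ms4a4b they were Trim8 (r = 0.995), Dusp5 (r = 0.987) and Dtx3l (r = 0.981), all of which were highest in WT 2. Ms4a4b was itself highest in WT 2 and at only 0.696 to 1.41 TPM, near the floor, so these r values say little. Among the members, Bst2 and Ifi27l2a were most alike (r = 0.944), the 3 Ifitm genes had r of 0.866 to 0.884 with each other, and Ifi27 had r of 0.178 with Ifitm2.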

How the data were processed

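TPM values of 24493 gene symbols in 6 libraries were deposited by the authors as 1 table. Per the submitters' processing notes, Salmon was the quantifier and mm10 and GRCm38 the builds; its version, the annotation and read filters were not given in the sources used here. Per the labels' protocols, libraries were for mRNA and RNA came from a miRNeasy kit. Columns were assigned by the sample titles. TPM keeps no depth, so no counting interval is given, and no count model was used.

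Values were tested as log2(TPM + 1), a scale that understates changes of low genes, with limma 3.58.1 (intensity trend, R 4.3.3), genotype as the only term, for genes of 1 TPM or more in the mean, adjusted over all of them. Ms4a4b, under the filter, was tested with an exact permutation of the 6 libraries (20 regroupings). The fit was tested on simulated data with 200 of 12141 genes changed, in 10 runs. At an adjusted p under 0.05 it found 38.2% of 2-fold and 87% of 4-fold changes, with 4.31% of calls false. Changes of about 2-fold could thus often be missed. These shares are averages over randomly drawn genes and cannot be read as holding for the Ifitm genes. The pooled SD of log2 values of those genes was 0.71 to 1.25, against a median of 0.248 over all genes tested. The 9 members, the lists and the rule for named genes were chosen with earlier results of these data known. Named were all members, the up to 4 most abundant genes of a list and the signalling genes with an unadjusted p under 0.05. The 3 genes most like Bst2, Ifi27l2a, Ifitm3 and Ms4a4b were named too, with members and predicted gene models left out. Other genes (Gzmb among the libraries' order, Socs3, Ly6g, Cd8b1, S100a8, S100a9, Siglech, Rn4.5s and the low markers) were named after their values were seen. Not every gene the rule allows is printed. Marchf8 was matched by its older symbol March8. Shared 31-base words and positions are from GENCODE M21 (GRCm38), which may not be the annotation used for quantification; promoters and older names are from RefSeq. Alternatives were other pseudocounts (0.1, 0.5), filters (none, 5 TPM), scalings, variance models, a replicate block, a term separating WT 2 and Ifnar1-SA 1 from the rest, and leaving out each library or that pair. Python 3.11.15, pandas 2.3.3 and matplotlib 3.10.9 were used for tables and figures.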

Additional observations from a re-analysis of the deposited data

How the results depend on the processing

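No member passed an adjusted p of 0.05 under any alternative run; the lowest was 0.091 for Ifi27l2a with robust empirical Bayes. The log2 differences of Bst2, Ifitm1, Ifitm2, Ifitm3, Ifi27 and Ifi27l2a stayed above 0 in all of them, and leaving out 1 library at a time gave 0.83 to 1.22, 1.96 to 3.54, 0.48 to 1.21, 1.5 to 2.71, 0.69 to 1.0 and 1.49 to 2.02. Ms4a6b ranged from −0.054 (without Ifnar1-SA 1) to 0.43, and Ms4a4b from −0.046 to 0.21, below 0 without WT 1, without WT 3 (−0.027) and without Ifnar1-SA 1 (−0.0024). The count of members higher without overlap was 3 with median-of-ratios and TMM scaling (4.38% and 4.41% of all genes), which lose Ifitm1, and 6 with quantile normalization (4.55%), which adds Ifitm3 and Ms4a4c.

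Over all genes, the 7 past the threshold became 15 and 14 with pseudocounts of 0.1 and 0.5, 1 with a mean of at least 5 TPM, 12 with robust empirical Bayes and with array weights, 0 without the pair of WT 2 and Ifnar1-SA 1, and 15 to 28 without 1 library; the cause was not tested. With the replicate number as a block the count was 0 and the adjusted p of Ifi27l2a 0.358; deviations of libraries with the same number correlated at −0.112, −0.106 and 0.151, so the numbers were not taken to pair them. For Ms4a4b quantile normalization, the 5 TPM filter, the variance models, the block and the model term were not run, and Ms4a4c fell under the filter without WT 2, Ifnar1-SA 1 or Ifnar1-SA 3, without the pair and at 5 TPM. Depth is unknown, which limits the genes near 1 TPM most.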

Other observations

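The balance within the families was also compared, as 4 ratios chosen after the values were seen. Each had an exact two-sided permutation test, which cannot go below 0.1 with 3 against 3 libraries. The Benjamini-Hochberg adjusted p over the 4 cannot go below 0.1 either, and its lowest value here was 0.133. Ifitm1, the member that stays mainly at the plasma membrane, was at 13.95%, 8.64% and 3.56% of the TPM of Ifitm2 in the WT libraries and at 28.0%, 34.3% and 24.2% in the Ifnar1-SA libraries, without overlap (exact p = 0.1, adjusted 0.133). Ifitm3 was at 56.2%, 28.5% and 39.3% of Ifitm2 in WT and at 95.0%, 56.8% and 160% in Ifnar1-SA, also without overlap although each gene's own values overlapped (exact p = 0.1, adjusted 0.133). In Ifnar1-SA 3 alone, Ifitm3 exceeded Ifitm2. Ifitm1 relative to Ifitm3 overlapped, at 24.8%, 30.3% and 9.05% in WT and 29.5%, 60.4% and 15.1% in Ifnar1-SA (exact p = 0.5, adjusted 0.5).

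Ifi27 was at 70.4%, 110% and 78.3% of Ifi27l2a in the WT libraries and at 57.0%, 55.0% and 27.5% in the Ifnar1-SA libraries, without overlap (exact p = 0.1, adjusted 0.133). These are ratios within a library, so a scaling of whole libraries leaves them as they are, but they depend on how reads shared between Ifitm genes were assigned.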
